A study of Mus musculus with 15 samples.

Results

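The genes described here are 42 genes that mark brown and white adipocytes or carry out fat storage and breakdown, measured in the mouse aorta. They were found through probe sets annotated with the member's symbol alone, and where a gene had more than 1 such probe set the one with the highest mean over all arrays was taken. This gave 36 measured genes among 15095 probe sets, and Lep, Cfd, Bmp8b, Adrb3, Acvr1c and Gyk were not analysed here. The 7 brown markers among them are Ucp1, Cidea, Elovl3, Dio2, Ppargc1a, Prdm16 and Ppara, and the other 29 serve white as well as brown adipocytes. Gpd1 and Car3 had 2 probe sets each.

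The aorta of C57BL6 mice was measured on Affymetrix arrays, with 1 array per mouse and 15 arrays in all. In 8 mice an osmotic pump delivered angiotensin II (AngII), a peptide hormone that constricts vessels and raises blood pressure, at 1 µg/kg/min for 3 weeks. In 7 mice the pump held saline (vehicle). Pumps were implanted at 2 months of age in both groups, and the labels give no transgene or deletion for either. The methods state that fat and loose connective tissue were dissected off the vessel, from the root to the iliac bifurcation, before RNA was extracted. Values are log2 array signals, so a difference of 1 is a doubling, and each gene is compared only with itself across arrays, since probe sets differ in how brightly they bind.

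Brown adipocytes burn fatty acids to make heat through uncoupling protein in their many mitochondria, whereas white adipocytes store triglyceride in a single large droplet and secrete hormones such as adiponectin. In the mouse, the fat around the thoracic aorta resembles brown fat and that around the abdominal aorta is closer to white fat. The nuclear receptor PPARγ with C/EBPα drives the adipocyte programme in both types, and PRDM16 and PGC-1α add the brown one.

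The promoters shown are those of genes on which the results turn: Ucp1 and Adipoq, a brown and a general adipocyte gene that varied together, and Prdm16, a regulator of brown fate that spread little between arrays. Each is a RefSeq window of the GRCm38.p6 assembly, from 250 bases before to 50 bases after an annotated transcript start, written 5′ to 3′ on the strand of the gene. Capitals mark matches, on either strand, to 4 short motifs: AGGTCA, the half-site of nuclear receptors, TGACG, the core of the cyclic AMP response element, CCAAT, the CCAAT box, and TATAAA, the TATA box.
Ucp1, chr8:83290098-83290397, plus strand: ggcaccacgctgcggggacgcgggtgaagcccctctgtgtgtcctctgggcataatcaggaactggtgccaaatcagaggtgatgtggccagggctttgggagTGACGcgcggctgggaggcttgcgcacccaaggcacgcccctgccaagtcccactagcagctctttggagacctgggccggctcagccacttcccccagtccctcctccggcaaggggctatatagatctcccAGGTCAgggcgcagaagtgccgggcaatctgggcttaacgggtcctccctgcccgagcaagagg
Adipoq, chr16:23146286-23146585, plus strand: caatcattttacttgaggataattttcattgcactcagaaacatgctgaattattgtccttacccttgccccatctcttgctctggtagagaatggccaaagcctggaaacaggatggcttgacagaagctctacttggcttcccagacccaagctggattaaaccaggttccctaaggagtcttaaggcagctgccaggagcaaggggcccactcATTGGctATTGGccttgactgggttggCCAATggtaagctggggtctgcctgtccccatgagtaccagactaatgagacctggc
Prdm16, chr4:154636824-154637123, minus strand: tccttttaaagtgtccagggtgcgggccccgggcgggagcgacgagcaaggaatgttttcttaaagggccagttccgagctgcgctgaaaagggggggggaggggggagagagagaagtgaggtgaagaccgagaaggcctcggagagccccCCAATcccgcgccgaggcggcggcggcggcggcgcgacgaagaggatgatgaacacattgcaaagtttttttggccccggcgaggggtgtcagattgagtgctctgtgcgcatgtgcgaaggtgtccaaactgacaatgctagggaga
In the Ucp1 window AGGTCA began at position -14 and TGACG at position -147 from the start site. The Adipoq window held CCAAT at -7 and its reverse complement at -34 and -27, and the Prdm16 window held CCAAT at -98. Such letters are common: over 32851 promoters of the same length AGGTCA was found in 16.3%, TGACG in 20.8%, CCAAT in 37.4% and TATAAA in 13.6%. Promoters were listed for 26 of the measured genes, with 35 windows in all. AGGTCA was in 8 of these windows (22.9%), TGACG in 5 (14.3%), CCAAT in 12 (34.3%) and TATAAA in 3 (8.57%). The matches describe the sequence and do not show that a factor binds there.

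The arrays had medians between 7.16 and 7.28, and any pair of them correlated at r between 0.925 and 0.985 over all probe sets. All 10 smooth muscle markers listed were measured, among them Acta2, smooth muscle actin, at 13.71 ± 0.17 in AngII and 13.84 ± 0.05 in vehicle aortae (SD, n = 8 and 7). The arrays AngII 1 and vehicle 1 carried heart muscle mRNA: Tnni3, cardiac troponin I, was at 9.88 in AngII 1 and at 7.15 or less in the other AngII arrays, and at 10.68 in vehicle 1 and at 6.98 or less in the other vehicle arrays. Both belong to series A of the sample names, described next. The fold ranges of Ucp1, Elovl3 and Elovl6, and array orders and calls over the adipocyte genes, are also given without them. The lowest, median and highest values of each gene include both arrays. The sample names fall into 2 series that the submitters did not explain, called A here (3 AngII and 2 vehicle arrays) and B (5 and 5). Skeletal muscle signal was also seen, in AngII 1 and AngII 8. Acta1, skeletal muscle actin, was at 8.19 and 8.18 there and at 6.96 or less in all other arrays. Tnnt3, a skeletal muscle troponin, was at 7.57 and 8.10 there and at 6.17 or less in all other arrays.

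None of the 36 adipocyte genes passed the test of AngII against vehicle aortae, while nearly all of them spread widely between mice of the same group. By limma with adjustment over all probe sets, 0 of the 36 genes were higher and 0 lower, where 2.42% of all probe sets were called higher and 2.91% lower, 5.33% in all. At an unadjusted limma p under 0.05 there were 2 genes, Prdm16 and Plin4, against a background of 21.9%, and the same 2 had an unadjusted exact permutation p under 0.05. In none of the 36 did the groups separate without overlap, as they did for 1.09% of all probe sets. Since a whole aorta is a mixture, fewer cells of a type and less RNA per cell cannot be told apart in any of these values.

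Ucp1, the uncoupling protein that makes brown fat produce heat, was at 11.93, 10.26, 11.55, 10.98, 12.07, 9.19, 12.03 and 11.01 in AngII 1 to 8, and at 12.20, 11.65, 12.03, 10.35, 8.90, 10.08 and 8.50 in vehicle 1 to 7. The highest and the lowest array were both vehicle arrays, and all AngII arrays lay between them. AngII minus vehicle came to 0.60 (standard error 0.578, 95% confidence interval -0.62 to 1.82, adjusted p = 0.581 from limma). The lowest and highest arrays were 7.36-fold apart in the AngII group and 13.0-fold apart in the vehicle group, and 7.36-fold and 11.6-fold apart without AngII 1 and vehicle 1. Cidea, a lipid droplet protein abundant in brown fat, ran from 8.70 over a median of 10.46 to 11.16 in AngII aortae and from 8.13 over 9.96 to 11.23 in vehicle aortae. Its groups overlapped almost fully, with a difference of 0.54 (standard error 0.478, adjusted p = 0.545 from limma).

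Elovl3, which elongates fatty acids in brown fat, had the widest range of all 36 genes. It spanned 6.59 to 9.33 with a median of 8.32 in AngII aortae and 5.60 to 10.45 with a median of 7.86 in vehicle aortae, a 6.67-fold range in AngII and a 28.8-fold range in vehicle aortae. Without AngII 1 and vehicle 1, its highest arrays, these ranges were 6.23-fold and 12.9-fold. AngII 6 and vehicle 7 were the lowest arrays of their groups. AngII minus vehicle came to 0.30 (standard error 0.657, adjusted p = 0.83 from limma), and it was -0.02 without vehicle 5 and -0.08 without vehicle 7, the 2 lowest arrays.

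The remaining brown markers spread less. Dio2, the deiodinase that activates thyroid hormone within brown fat, ran from 7.59 (AngII 4) over 8.53 to 9.34 (AngII 2) in AngII aortae and from 7.26 over 8.46 to 9.16 in vehicle aortae, so that its order of AngII arrays was not that of Ucp1. Ppargc1a, the coactivator PGC-1α, ran from 6.39 over 7.25 to 7.44 in AngII aortae and from 6.29 over 6.60 to 8.06 in vehicle aortae. Ppara, the nuclear receptor of fatty acid oxidation, ran from 5.84 over 6.75 to 7.50 in AngII aortae and from 5.84 over 6.22 to 7.48 in vehicle aortae. The groups overlapped almost fully in all 3 genes, whose differences were 0.07, 0.17 and 0.22 (adjusted p = 0.908, 0.741 and 0.665 from limma).

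Prdm16, the zinc finger protein that commits precursors to brown fat, had the only negative difference among the brown markers. It was at 8.86, 8.84, 8.64, 8.75, 8.34, 8.57, 8.54 and 8.32 in AngII 1 to 8, and at 8.57, 9.22, 8.76, 8.91, 9.13, 9.04 and 8.85 in vehicle 1 to 7. All vehicle arrays but vehicle 1 and vehicle 3 were at 8.85 or above, and vehicle 1, vehicle 3 and vehicle 7 lay below the highest AngII array. AngII minus vehicle came to -0.32 (standard error 0.106, adjusted p = 0.09 from limma, unadjusted exact permutation p = 0.0151, two-sided), which did not pass the threshold. Without vehicle 1 limma called it lower (-0.38, adjusted p = 0.0349, background 7.25%), as it did without both arrays that carried heart mRNA (-0.42, adjusted p = 0.0279, background 6.04%), with array weights (-0.32, adjusted p = 0.046, background 8.43%) and in series B alone (-0.44, adjusted p = 0.047, background 2.47%). Leaving out any other single array led to no call, for example without vehicle 2 (-0.27, adjusted p = 0.182 from limma). The difference was smaller and not called in series A alone (-0.11, adjusted p = 0.867 from limma) and with the mean of smooth muscle markers as a covariate (-0.12, adjusted p = 0.507 from limma). Its pooled SD within groups was 0.22, the smallest of the brown markers.

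**Figure D1:**
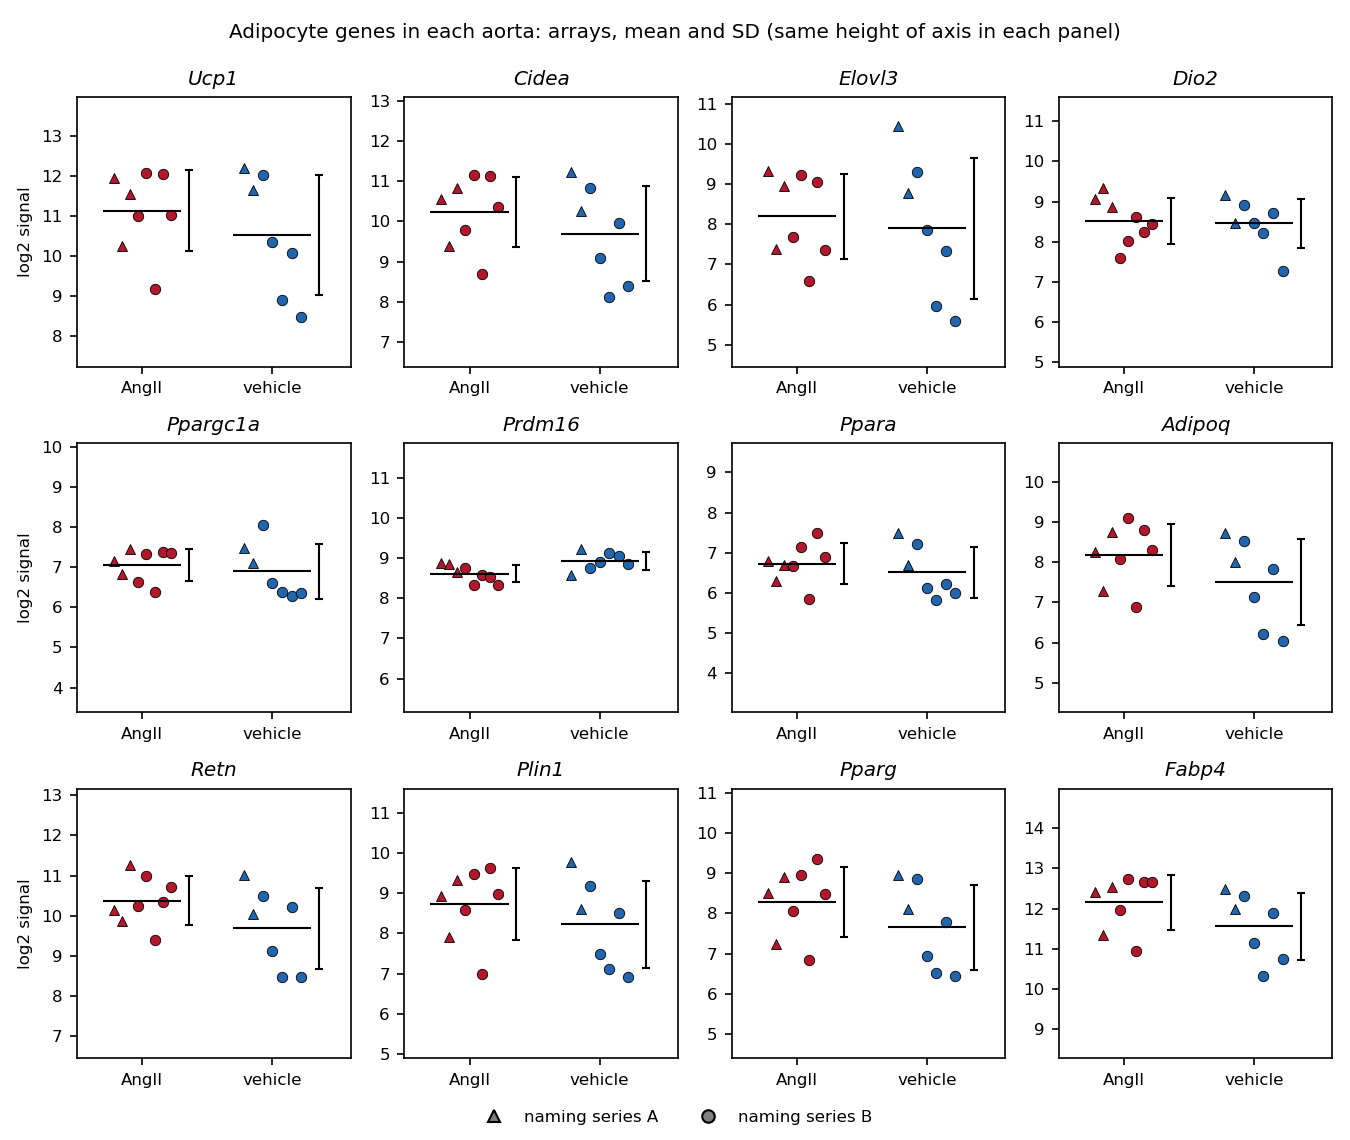
Log2 signal of the 7 brown markers and of 5 adipocyte genes in each AngII aorta (red, left) and vehicle aorta (blue, right). Points are arrays, triangles those of naming series A and circles those of series B, the horizontal line is the group mean and the bar beside it is ± 1 SD; all panels span the same number of log2 units, so Elovl3 and Ucp1 are seen to range widely and Prdm16 narrowly.

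The 2 secreted factors had like differences with wide errors. Adipoq, adiponectin, ran from 6.90 (AngII 6) over 8.28 to 9.11 (AngII 5) in AngII aortae and from 6.03 (vehicle 7) over 7.84 to 8.72 (vehicle 1) in vehicle aortae. Retn, resistin, ran from 9.39 (AngII 6) over 10.29 to 11.27 (AngII 3) in AngII aortae and from 8.47 (vehicle 5) over 10.03 to 11.03 (vehicle 1) in vehicle aortae. Both differences were 0.68 (standard errors 0.424 and 0.379, adjusted p = 0.363 and 0.308 from limma). The 95% confidence interval for Adipoq ran from -0.21 to 1.58.

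Of the 4 lipid droplet proteins, Plin1 and Cidec spread widely, Plin5 less, and Plin4 hardly at all. Plin1, perilipin, which guards the droplet of fat cells, ran from 6.98 over 8.95 to 9.62 in AngII aortae and from 6.91 over 8.51 to 9.78 in vehicle aortae (difference 0.51, adjusted p = 0.553 from limma). Cidec, which fuses droplets, ran from 8.05 over 9.94 to 10.50 in AngII aortae and from 7.55 over 9.10 to 10.90 in vehicle aortae (difference 0.61, adjusted p = 0.5 from limma). Plin5, a perilipin of fat-burning cells, differed by 0.20. Plin4, a perilipin of small droplets, was named after its values were seen. It ran from 9.54 over 9.80 to 10.03 in AngII aortae and from 9.84 over 10.03 to 10.17 in vehicle aortae. Plin4 had the smallest pooled SD of the 36 genes, 0.14, and its difference of -0.22 (standard error 0.0738, adjusted p = 0.0889 from limma, unadjusted exact permutation p = 0.00948) missed the threshold. Without AngII 1, the highest AngII array, limma called it lower (-0.26, adjusted p = 0.0477, background 4.35%). Leaving out any other single array led to no call, and over all such fits the difference lay between -0.26 and -0.19.

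Among the 6 regulators of transcription, the 2 master genes of fat cells spread with the rest. Pparg ran from 6.84 over 8.50 to 9.36 in AngII aortae and from 6.43 over 7.79 to 8.96 in vehicle aortae, and Cebpa from 7.48 over 8.94 to 9.38 in AngII aortae and from 6.79 over 8.35 to 9.21 in vehicle aortae. Their differences were 0.64 and 0.62 (standard errors 0.444 and 0.381, adjusted p = 0.423 and 0.362 from limma). Thrsp, which promotes lipid synthesis, ran from 9.38 over 10.98 to 11.49 in AngII aortae and from 8.82 over 10.87 to 11.83 in vehicle aortae (difference 0.43, adjusted p = 0.621 from limma). Mlxipl, the glucose-sensing factor ChREBP, and Lpin1, a phosphatidate phosphatase that also acts as a coactivator, had differences of 0.23 and 0.10. Nrip1, the corepressor RIP140, singled out after its values were seen, stayed within 8.49 to 9.08 in AngII and 8.72 to 8.87 in vehicle aortae, with a difference of -0.01 (adjusted p = 0.963 from limma).

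The genes of fat uptake and breakdown gave differences from -0.08 to 0.62, none of them called. Fabp4, the fatty acid carrier of fat cells, ran from 10.94 over 12.47 to 12.73 in AngII aortae and from 10.31 over 11.89 to 12.49 in vehicle aortae. Lpl, lipoprotein lipase, ran from 9.32 over 10.63 to 11.39 in AngII aortae and from 8.48 over 9.89 to 11.35 in vehicle aortae. Their differences were 0.59 and 0.62 (standard errors 0.348 and 0.436, adjusted p = 0.334 and 0.432 from limma). Lipe, hormone-sensitive lipase, ran from 6.40 over 7.83 to 8.21 in AngII aortae and from 6.21 over 7.47 to 8.08 in vehicle aortae (difference 0.40, adjusted p = 0.481 from limma). Pnpla2, adipose triglyceride lipase, differed by 0.14, Slc27a1, a fatty acid transporter, by 0.14, and Slc2a4, the insulin-regulated glucose transporter GLUT4, by -0.08.

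All 5 genes of triglyceride synthesis and all 5 of fatty acid synthesis had positive differences with intervals that included 0. Pck1, which supplies glycerol for re-esterification, had the largest difference of the 36 genes. It ran from 8.08 over 10.31 to 11.07 in AngII aortae and from 7.76 over 8.86 to 10.91 in vehicle aortae, and differed by 0.83 (standard error 0.522, 95% confidence interval -0.28 to 1.93, adjusted p = 0.372 from limma). Gpd1, glycerol-3-phosphate dehydrogenase, ran from 9.10 over 11.12 to 11.79 in AngII aortae and from 8.52 over 10.54 to 11.86 in vehicle aortae. Its difference was 0.54, and that of its dimmer probe set 0.14 (adjusted p = 0.579 and 0.736 from limma). Dgat1 and Dgat2 add the last fatty acid to triglyceride. Dgat1 ran from 7.22 over 7.96 to 8.73 in AngII aortae and from 6.85 over 7.74 to 8.66 in vehicle aortae, and Dgat2 from 8.00 over 10.08 to 10.80 in AngII aortae and from 7.92 over 9.85 to 10.84 in vehicle aortae. They differed by 0.35 and 0.41, and Agpat2, an acyltransferase earlier in that pathway, by 0.33.
Of the fatty acid synthesis genes, Elovl6, an elongase, spread most, from 8.75 over 10.07 to 11.49 in AngII aortae and from 7.64 over 9.77 to 11.70 in vehicle aortae, a 6.69-fold range in AngII and a 16.7-fold range in vehicle aortae, which was 8.88-fold without vehicle 1. The groups differed by 0.49 (standard error 0.562, adjusted p = 0.648 from limma). The differences of Acaca, acetyl-CoA carboxylase, Fasn, fatty acid synthase, Acly, ATP citrate lyase, and Scd1, stearoyl-CoA desaturase, were 0.32, 0.24, 0.20 and 0.07. Car3, the carbonic anhydrase of fat and muscle, ran from 11.05 over 12.49 to 12.90 in AngII aortae and from 10.16 over 11.76 to 13.00 in vehicle aortae. Its 2 probe sets differed by 0.73 and 0.71 (adjusted p = 0.309 and 0.349 from limma).

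By sign alone, 32 of the 36 differences were positive, where 47.4% of all probe sets were, and 13 were above 0.5, where 2.14% were. The median difference was 0.34 over the 36 genes and 0.22 over the 7 brown markers, against -0.009 over all probe sets. These genes moved together from mouse to mouse, so 32 positive signs are not 32 separate observations. The standard error of a gene had a median of 0.415 over the 36 genes and 0.083 over all probe sets.

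**Figure D2:**
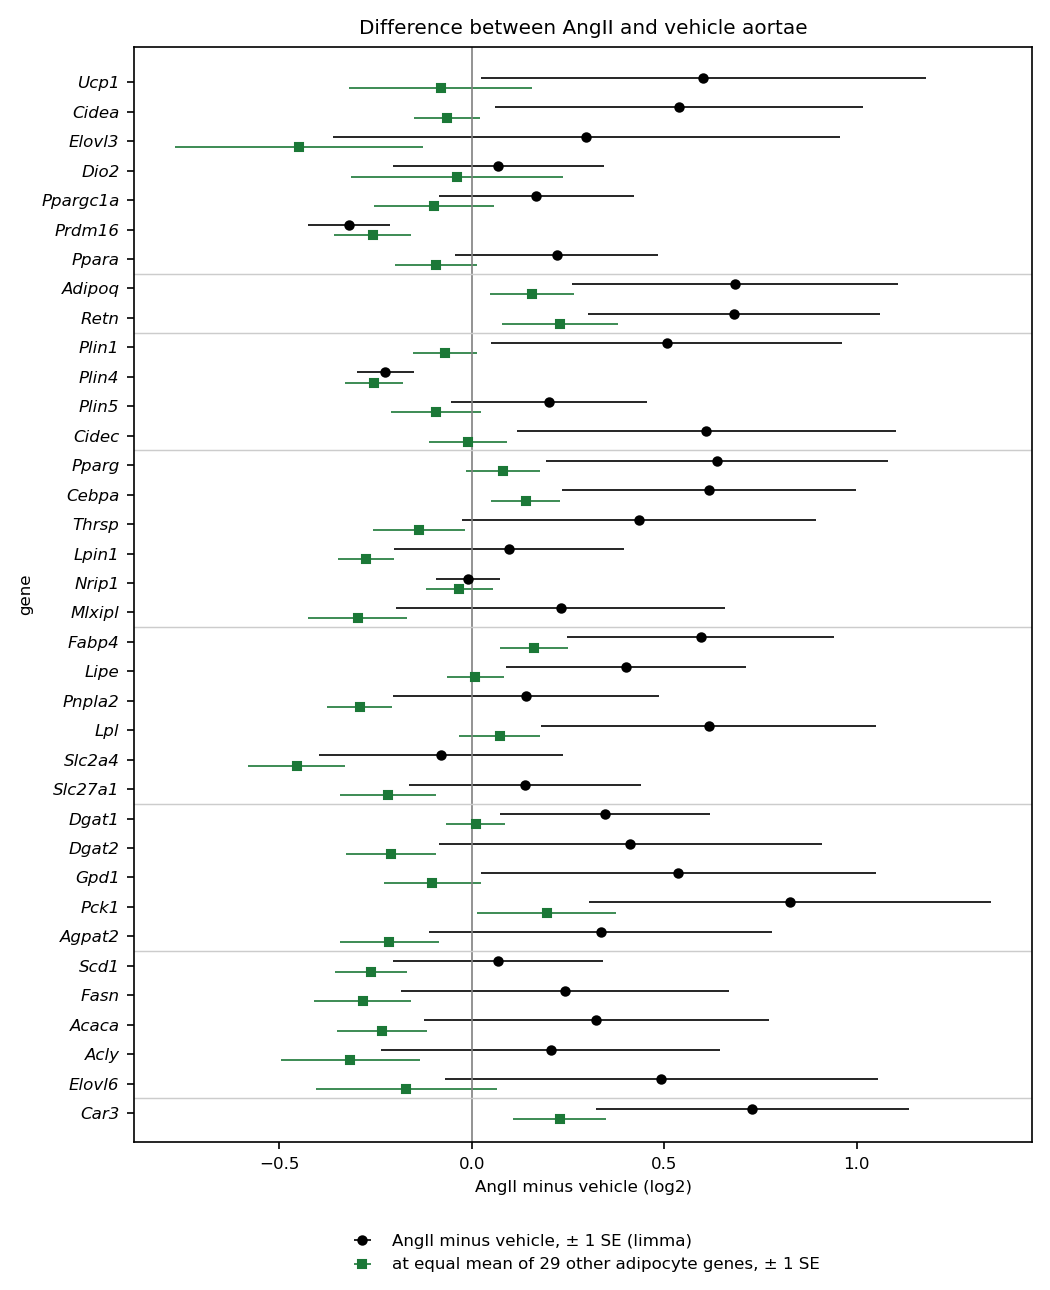
AngII minus vehicle difference in log2 signal of each of the 36 genes, grouped by role, with ± 1 standard error (limma). Black circles are the differences as measured and green squares those at an equal mean of 29 other adipocyte genes; black bars are long and mostly right of 0, green bars are short and mostly left of 0.

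The spread between mice of one group was large for these genes. The pooled within-group SD had a median of 0.898 over the 36 genes, against 0.164 over all probe sets. It was above 0.5 in 33 of the 36, where 3.16% of all probe sets were, and above 1 in 8, where 0.325% were. Over all 15 arrays 26 of the 36 genes (72.2%) covered a more than 4-fold range, against 2.53% of all probe sets, and 24 did without AngII 1 and vehicle 1 (2.0% of all probe sets). Elovl3 (1.42), Ucp1 (1.25), Elovl6 (1.22) and Pck1 (1.13) had the largest SDs. The 3 genes under 0.5 were Prdm16 (0.22), Nrip1 (0.16) and Plin4 (0.14), all within the bulk of the probe sets, at percentiles 72.6, 48.9 and 35.7 of the SD.

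**Figure D3:**
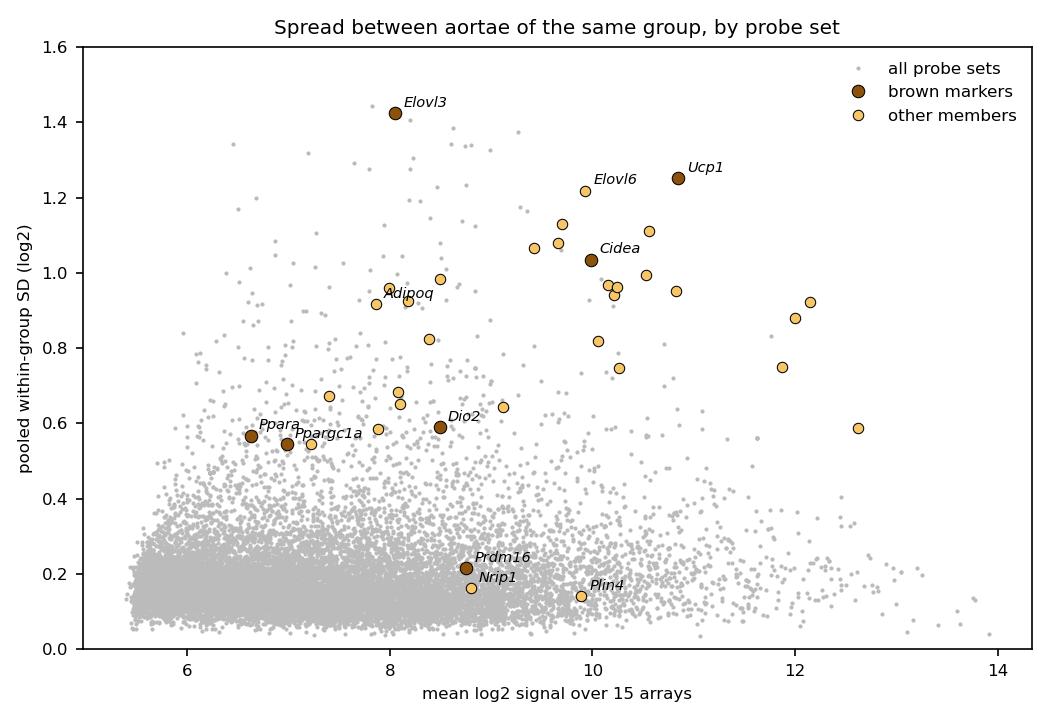
Pooled within-group SD (log2) against the mean log2 signal over 15 arrays for all 15095 probe sets (grey), the 7 brown markers (brown) and the other 29 genes (yellow). All but Prdm16, Nrip1 and Plin4 lie above an SD of 0.5, over most probe sets of the same mean signal.

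The SD was larger among vehicle than among AngII aortae in 33 of the 36 genes, where 46.0% of all probe sets had the larger SD in vehicle, but in 25 of the 36 (37.6% of all probe sets) without AngII 1 and vehicle 1. Its median was 0.742 in AngII and 1.004 in vehicle aortae. A test of the deviations from the group mean (limma, adjusted over all probe sets) called 0 of the 36 genes and 0.0% of all probe sets. At an unadjusted limma p under 0.05 it gave 3 genes, against a background of 7.75%. They were Retn and Car3, with the larger SD in vehicle aortae (unadjusted p = 0.0352 and 0.0365 from limma), and Nrip1, with the larger SD in AngII aortae (unadjusted p = 0.00623 from limma). A difference in spread between the groups was therefore not shown for any of these genes.

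The same arrays were high or low for nearly all the genes. AngII 6 was the lowest AngII array in 33 of the 36, against 13.7% of all probe sets, and Dio2, Prdm16 and Nrip1 were the exceptions. Vehicle 1 was the highest vehicle array in 32 of the 36 (21.2% of all probe sets), the exceptions being Ppargc1a, Prdm16, Plin4 and Pck1. Vehicle 5 and vehicle 7 both lay below every other vehicle array in 31 of the 36 (11.0% of all probe sets). Vehicle 1 exceeded vehicle 7 by more than 1 in 33 of the 36 genes, with a median of 2.50, where 3.79% of all probe sets showed such a gap and their median was -0.006. Within the AngII group, AngII 5 exceeded AngII 6 by more than 1 in 30 of the 36, with a median of 1.96 (2.26% and -0.033 over all probe sets).
Averaged over the 36 genes, the deviation from the gene mean ran from -1.03 in AngII 6 to 0.80 in AngII 7, and from -1.25 in vehicle 7 to 0.99 in vehicle 1. The mean over the AngII group was 0.16 ± 0.65 and that over the vehicle group -0.18 ± 0.88 (SD, n = 8 and 7). The 7 brown markers gave 0.11 ± 0.51 in AngII and -0.12 ± 0.85 in vehicle aortae, and the other 29 genes 0.17 ± 0.69 in AngII and -0.20 ± 0.89 in vehicle aortae. Vehicle 1 was also one of the arrays that carried heart mRNA. Without vehicle 1 and AngII 1, AngII 6 was still the lowest AngII array in 33 of the 36 genes, vehicle 3 was the highest vehicle array in 31 and vehicle 5 and vehicle 7 were below the other vehicle arrays in 31. The mean deviation was then 0.13 ± 0.69 in AngII and -0.38 ± 0.78 in vehicle aortae (SD, n = 7 and 6), and the median SD of the 36 genes was 0.872, against 0.898 with them.

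**Figure D4:**
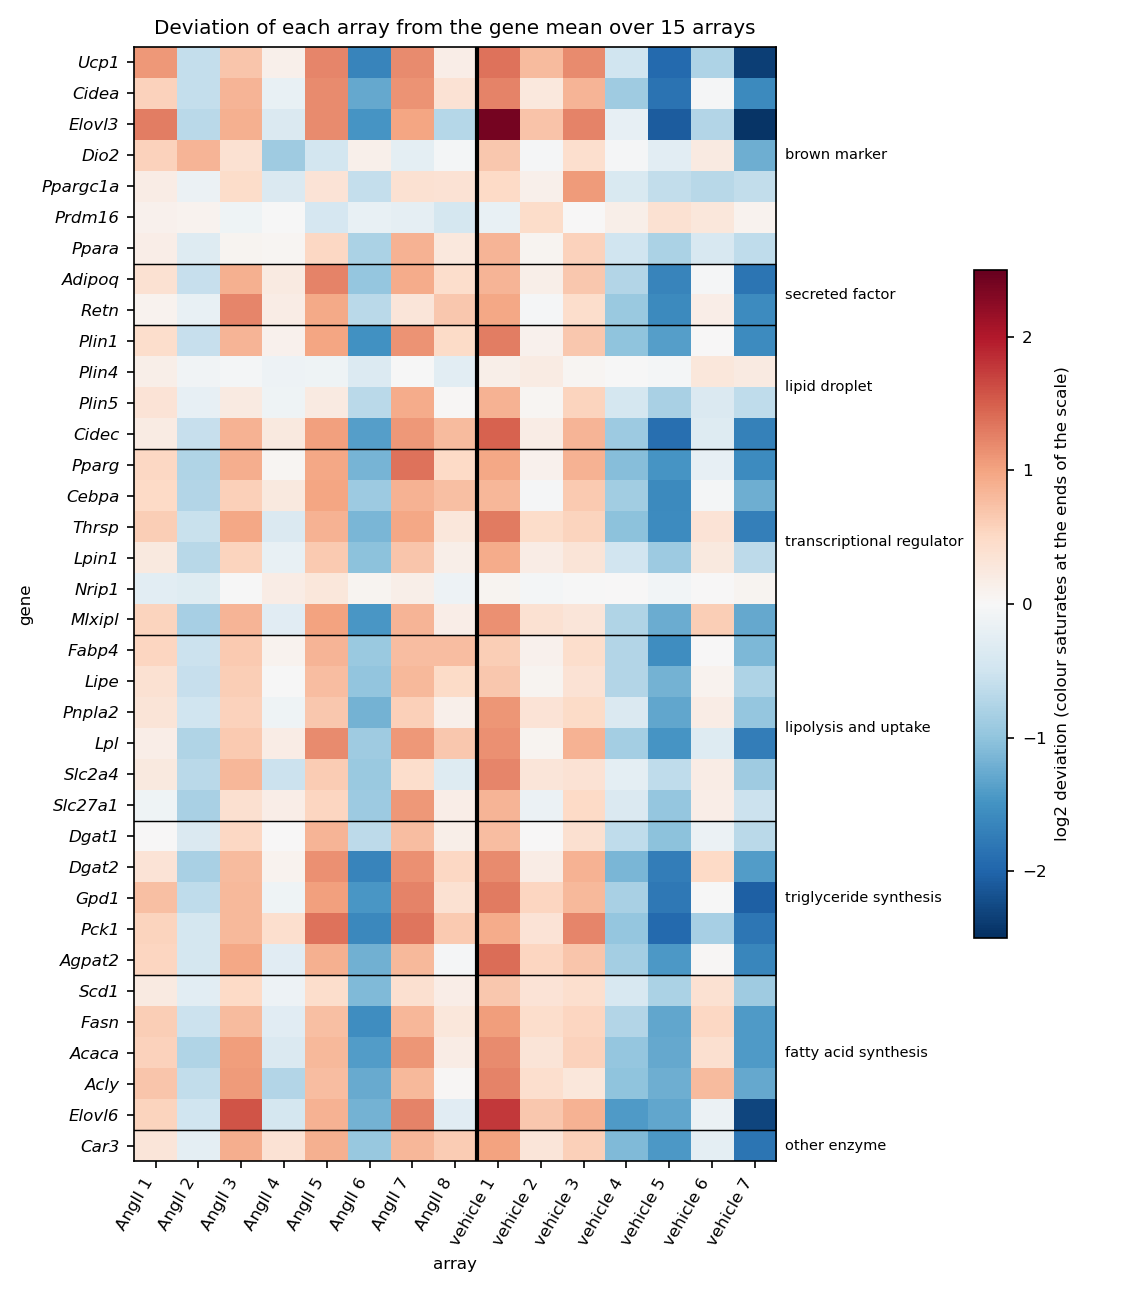
Deviation of each array from the gene mean over 15 arrays (log2, red higher, blue lower) for the 36 genes in rows, grouped by role, with the 8 AngII arrays left of the black line and the 7 vehicle arrays right of it. Columns AngII 6, vehicle 5 and vehicle 7 are blue and vehicle 1 red in nearly all rows, while the rows of Prdm16, Plin4 and Nrip1 are pale.

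In the pairs tested, Ucp1 and Cidea, Ucp1 and Adipoq, and Adipoq and Plin1 went up and down together. Not every brown marker followed. Prdm16 was lowest of the vehicle arrays in vehicle 1, where Ucp1 was highest, and Dio2 was lowest of the AngII arrays in AngII 4. After the group means were subtracted, Ucp1 and Cidea correlated over the 15 arrays at r = 0.951 and rho = 0.936, Ucp1 and Adipoq at r = 0.948 and rho = 0.921, and Adipoq and Plin1 at r = 0.972 and rho = 0.986. Each p was 1e-05 by permutation, the smallest that 100000 resamples can give, and 1.33e-05 after adjustment over the 4 pairs tested. Without the 2 arrays farthest from the median r was 0.933, 0.912 and 0.975, and within series B (n = 10) it was 0.946, 0.962 and 0.968, whereas series A had too few arrays. All pairs share the arrays and their scaling. The distance of Ucp1 or of Elovl3 from Adipoq had a smaller SD than either gene alone. The deviation of Ucp1 minus that of Adipoq lay between -0.69 (AngII 6) and 0.70 (AngII 1) in AngII aortae and between -0.74 (vehicle 6) and 0.64 in vehicle aortae. Its means were -0.04 ± 0.40 in AngII and 0.04 ± 0.56 in vehicle aortae (SD, n = 8 and 7). For Elovl3 minus Adipoq the range was wider, -1.15 (AngII 8) to 0.89 (AngII 1) in AngII and -0.70 to 1.54 (vehicle 1) in vehicle aortae. Without AngII 1 and vehicle 1 it was -1.15 to 0.06 in AngII and -0.70 to 0.57 in vehicle aortae, and for Ucp1 minus Adipoq -0.69 to 0.25 in AngII and -0.74 to 0.64 in vehicle aortae.

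Ucp1 ran against Myh11, the smooth muscle myosin heavy chain (r = -0.657, permutation p = 0.00667, rho = -0.804, permutation p = 0.00057, both unchanged by adjustment over the 4 pairs). Without the 2 farthest arrays r was -0.603 (permutation p = 0.0294), and within series B it was -0.764 (permutation p = 0.00946). The mean of the 10 smooth muscle markers lay between 10.42 and 11.09 in AngII and between 10.66 and 11.18 in vehicle aortae. This was a far smaller range than that of the adipocyte genes. Vehicle 7, the lowest vehicle array for Ucp1, was the highest vehicle array for this mean. Single markers differed, as vehicle 7 was the highest vehicle array for Myh11 (13.32) and the lowest for Acta2 (13.81). AngII 6, the lowest AngII array for Ucp1, had a smooth muscle mean of 10.86, within the AngII range.

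Most differences had opposite signs in the 2 series of sample names, but no interaction with the series was called. These genes moved together from mouse to mouse, so the signs counted here are not separate observations. The share of signs over all probe sets within each series is not given here. In series B, with 5 AngII and 5 vehicle arrays, 33 of the 36 differences were positive, with a median of 0.67 and a range from -0.44 to 1.30. In series A, with 3 AngII and 2 vehicle arrays, 35 of the 36 were negative, with a median of -0.46. For Ucp1, series B averaged 11.06 in AngII and 9.97 in vehicle arrays, and series A 11.25 in AngII and 11.92 in vehicle arrays. The 2 vehicle arrays of series A included vehicle 1, and both lowest vehicle arrays belonged to series B. With the series as a block 0 of the 36 genes were called (background 6.64%). The interaction, which tests whether the AngII effect differed between the series, was not called for any of the 36 genes by limma (lowest adjusted p = 0.729) nor for any probe set. At an unadjusted limma p under 0.05 there were 1 of the 36 genes and 965 of the 15095 probe sets. The level itself differed between the series, with AngII in the fit, for 461 of the 15095 probe sets and for 0 of the 36 genes (lowest adjusted p = 0.115 from limma). At an unadjusted limma p under 0.05 there were 3 of the 36 genes, against 2431 of the 15095 probe sets.

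To compare the groups at an equal mean of 29 other adipocyte genes, none of them among the 36, that mean was added to the fit. This covariate was chosen after the data were seen, and its genes included Itih4, which was lower in AngII aortae (-1.33, adjusted p = 0.0033 from limma), and Sncg, which was higher (0.42, adjusted p = 0.0403 from limma). Not all of its genes had the array order of the 36. Klf15 was lowest of the vehicle arrays in vehicle 1 (6.99), and Rbp4 was highest in AngII 2 (10.02). The median standard error of the 36 genes was then 0.117, against 0.415 without the covariate, and 26 of the 36 differences were negative, where 54.4% of all probe sets were. Of the 36 genes 0 were called higher (1.78% of all probe sets) and 1 lower (1.83% of all probe sets, 3.61% in both directions). The lower one was Lpin1 (-0.27, standard error 0.072, adjusted p = 0.0464 from limma). At an unadjusted p under 0.05 there were 8 genes, all of them negative, and 10.7% of all probe sets were past that p and negative. The genes share the arrays and the covariate, so the signs in this fit, here and below, are not separate observations.
Next to Lpin1 came Slc2a4 at -0.46 (adjusted p = 0.0563), Pnpla2 at -0.29 (adjusted p = 0.0673) and Plin4 at -0.25 (adjusted p = 0.0708, all from limma), none of which passed. Prdm16 was at -0.26 (adjusted p = 0.169 from limma). All 5 fatty acid synthesis genes were negative, with a median of -0.26. Ucp1 and Cidea were at -0.08 and -0.07, and Adipoq, Retn, Fabp4 and Car3 at 0.16, 0.23, 0.16 and 0.23. The covariate differed between the groups in the same direction as the 36 genes: 23 of its 29 genes had positive differences, with a median of 0.317, against 0.34 over the 36 genes. Of the 29, limma called 1 higher and 1 lower, the pair named above, where 2.42% of all probe sets were called higher and 2.91% lower. The mean of the covariate was 8.40 ± 0.45 in AngII and 8.11 ± 0.55 in vehicle aortae (SD, n = 8 and 7), less apart than that spread.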

How the data were processed

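RNA of 8 AngII and 7 vehicle aortae was hybridised to Affymetrix arrays, 1 per mouse. Per the methods, the authors ran Expression Console, whose robust multiarray analysis (RMA) corrects the background, normalizes arrays and summarizes each probe set, and deposited log2 values, which were used as they are. RMA pulls array distributions together, so a change shared by most probe sets would not be seen. The authors tested by significance analysis of microarrays (SAM). The labels and the methods name different RNA extraction kits. Platform symbols were given for 13403 of 15095 probe sets as 1 gene, for 958 as several and for 734 not at all.
Each probe set was fitted for AngII against vehicle with limma 3.58.1 in R 4.3.3, with no filter, p-values being adjusted by Benjamini-Hochberg over the whole table and called under 0.05. Spread was tested in the same way on absolute deviations from the group mean. Single genes had a two-sided exact permutation test, and pairs of genes 100000 permutations of group-centred values. The scripts were tested on simulated data, where the spread test recovered few changes after adjustment. The number of arrays limits the precision, and p-values weigh a difference or a correlation against the spread between these mice.
The members and lists were chosen with earlier results of these data known. Values per array or as lowest, median and highest were due for the brown markers, Adipoq, Retn, Plin1, Cidec, Fabp4, Pparg, any called member, and the 5 others each of largest SD and difference. Plin4, Nrip1, Lpin1 and the heart and smooth muscle genes were added after their values were seen. Pairs with Lep were not analysed here. Alternatives were a filter at a mean log2 of 6, other scalings, series and replicate blocks, each series alone, array weights, robust eBayes, covariates, all probe sets of a gene, and each array left out.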

Additional observations from a re-analysis of the deposited data

Results flagged for a closer look

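Among the genes named, 98 groups of arrays were examined for a single array set far apart from the rest, and chance alone sets apart about 5% of them. No adipocyte gene had such an array. The 4 that did were of heart muscle genes, in the same 2 aortae. Tnni3, cardiac troponin I, was at 9.88 in AngII 1, with the next AngII array at 7.15, and at 10.68 in vehicle 1, with the next vehicle array at 6.98. Tnnt2, cardiac troponin T, was at 10.55 in AngII 1, with the next AngII array at 8.85, and at 11.32 in vehicle 1, with the next vehicle array at 8.06.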

How the results depend on the processing

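Over the alternatives run, 0 of the 36 adipocyte genes were called higher in any of them. The number called lower was 1 in series B alone, with array weights, with the adipocyte covariate and without both arrays that carried heart mRNA, and 0 to 1 when single arrays were left out. For 26 genes and 28 alternatives, 652 of 728 differences kept their sign and side of the threshold, 71 changed sign and 5 others passed the threshold. Among those that changed sign, Lpin1 with the adipocyte covariate also passed it (adjusted p = 0.0464 from limma). Calls over all probe sets, 805 in the report, were 373 in series B alone, 8 in series A alone, 1272 with array weights, 156 with the smooth muscle mean as a covariate and 344 to 1198 with single arrays left out. The cause was not tested. With the replicate number as a block, 191 probe sets and 0 of the 36 genes were called, and the difference of Nrip1 was 0.01. Deviations of arrays with the same number correlated with both signs (r from -0.456 to 0.416). Of the AngII arrays only number 4 correlated best with the vehicle array of its own number. Pairing of the mice by number was therefore not seen, though such correlations cannot exclude it.

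The differences that changed sign are given first. In series A alone they were -0.67 for Ucp1, -0.48 for Cidea, -1.06 for Elovl3, -0.15 for Ppargc1a, -0.49 for Ppara, -0.28 for Adipoq, -0.1 for Retn, -0.46 for Plin1, -0.66 for Cidec, -0.15 for Fabp4, -0.31 for Pparg, -0.68 for Elovl6, -0.32 for Pck1, -0.61 for Gpd1, -0.58 for Dgat2, -0.54 for Thrsp, -0.33 for Car3, -0.27 for Cebpa, -0.59 for Lpl, -0.23 for Lipe, -0.34 for Dgat1 and -0.52 for Lpin1. With the smooth muscle covariate they were -0.13 for Ucp1, -0.2 for Cidea, -0.52 for Elovl3, -0.16 for Ppargc1a, -0.19 for Ppara, -0.21 for Plin1, -0.2 for Cidec, -0.05 for Pparg, -0.25 for Elovl6, -0.19 for Gpd1, -0.36 for Dgat2, -0.22 for Thrsp, -0.02 for Cebpa, -0.17 for Lpl, -0.09 for Lipe, -0.12 for Dgat1 and -0.37 for Lpin1. With the adipocyte covariate they were -0.08 for Ucp1, -0.07 for Cidea, -0.45 for Elovl3, -0.04 for Dio2, -0.1 for Ppargc1a, -0.09 for Ppara, -0.07 for Plin1, -0.01 for Cidec, -0.17 for Elovl6, -0.1 for Gpd1, -0.21 for Dgat2, -0.14 for Thrsp and -0.27 for Lpin1. In series B alone Dio2 was at -0.13 and Nrip1 at 0.11. Nrip1 was at 0.01 with the series as a block, 0.01 after a further quantile normalization, 0.0 with array weights and 0.04 without both arrays that carried heart mRNA. With single arrays left out, the difference of Elovl3 lay between -0.08 and 0.72, of Dio2 between -0.13 and 0.2, of Nrip1 between -0.05 and 0.03 and of Lpin1 between -0.04 and 0.26. Others kept their sign but shrank with the smooth muscle covariate, to 0.0 for Adipoq, 0.07 for Retn, 0.06 for Fabp4, 0.07 for Pck1, 0.11 for Car3 and -0.12 for Prdm16. Leaving out single arrays moved 20 of the 26 differences by over 1.5 times or changed their sign, and beside those above the ranges were 0.26 to 0.88 for Ucp1, 0.28 to 0.79 for Cidea, 0.07 to 0.36 for Ppargc1a, 0.11 to 0.38 for Ppara, 0.44 to 0.89 for Adipoq, 0.29 to 0.76 for Plin1, 0.35 to 0.91 for Cidec, 0.39 to 0.77 for Fabp4, 0.16 to 0.83 for Elovl6, 0.24 to 0.8 for Gpd1, 0.16 to 0.68 for Dgat2, 0.19 to 0.69 for Thrsp, 0.4 to 0.81 for Cebpa, 0.38 to 0.86 for Lpl, 0.24 to 0.57 for Lipe and 0.21 to 0.51 for Dgat1, none of them called. The replicate block gave -0.28 for Prdm16 (adjusted p = 0.257 from limma). The median SD of the 36 genes lay between 0.816 and 0.933, and the spread test called 0 to 2 probe sets, none of them of the 36.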

Other observations

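Other genes of brown fat, from a list of 26 of which 19 were measured, gave 0 higher and 1 lower gene by limma. Over all probe sets 2.42% were called higher and 2.91% lower. The lower one was Tmem26, a marker of beige adipocytes, which ran from 6.06 over 6.24 to 6.51 in AngII aortae and from 6.44 over 6.78 to 7.10 in vehicle aortae (-0.48, adjusted p = 0.0167 from limma). Its array order was not that of most adipocyte genes. Tmem26 was highest in AngII 6 and vehicle 5, where those genes were mostly low, and lowest in AngII 7 and vehicle 7. The pooled SD was largest for Cox8b (1.33) and Cox7a1 (1.23), muscle and brown fat isoforms of cytochrome oxidase subunits, and for Slc27a2 (1.20), a fatty acid transporter. Cox8b ran from 7.57 over 9.64 to 10.55 in AngII aortae and from 6.54 over 8.41 to 10.47 in vehicle aortae (0.73, adjusted p = 0.517 from limma).

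Of 29 measured further adipocyte genes, limma called Sncg, synuclein gamma, higher (0.42, adjusted p = 0.0403) and Itih4, an inhibitor heavy chain, lower (-1.33, adjusted p = 0.0033). Over all probe sets 2.42% were called higher and 2.91% lower. Itih4 ran from 8.01 over 8.62 to 9.66 in AngII aortae and from 9.69 over 10.01 to 10.20 in vehicle aortae, without overlap. Hp, haptoglobin (1.17), Prkar2b, a regulatory subunit of protein kinase A (1.14), and Pcx, pyruvate carboxylase (1.04), had the largest pooled SDs. Of 11 measured preadipocyte genes 1 was called, Sfrp2, a secreted Wnt modulator, which was higher (0.38, adjusted p = 0.0481 from limma), and Dpp4, Gata2 and Cd24a had the largest pooled SDs (0.62, 0.61 and 0.58).

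Other cell types moved as follows beside the adipocyte genes, where limma called 2.42% of all probe sets higher and 2.91% lower, 5.33% in all. Of the macrophage markers 4 of 7 were higher by limma, Cd68 (0.73), Cd14 (0.53), Lyz2 (0.78) and Mpeg1 (1.50), and of the fibroblast markers 2 of 7, Lum (1.02) and Dpt (0.54). None of 10 smooth muscle and 8 endothelial markers was called, nor any of the 4 skeletal muscle, 4 heart muscle, 2 Schwann cell, 1 red blood cell and 3 mesothelial markers measured, and no lymphocyte marker of 8 was analysed here. Beyond the smooth muscle covariate and the pair of Ucp1 with Myh11, the part of these cell types in the adipocyte values was not tested.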
